A study of Mus musculus with 15 samples.

Results

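Mesothelial cells, the serosal covering cells that a dissected mouse aorta carries along, were selected on the marker counts of single-cell RNAseq. A barcode was kept if it held 200 to 7000 detected genes and at most 25% of its unique molecular identifiers (UMIs, one for each captured RNA molecule) from mitochondrial genes. It was gated as mesothelial if at least 3 of the 6 markers Msln, Upk3b, Upk1b, Lrrn4, Krt19 and Muc16 had a UMI while Ptprc, which marks leukocytes, and Cdh5, which marks endothelial cells, had none. The rule found 544 cells among 128019 kept cells, or 0.425% of them, with 0 to 99 cells in each of 15 libraries. All 6 markers were detected in 336 of the gated cells, 5 in 85, 4 in 71 and 3 in 52.

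The mesothelium is the sheet of flattened cells that lines the body cavities and covers the organs within them. Mesothelial cells arise from the mesoderm, yet they carry keratins and tight junction proteins as epithelia do, together with vimentin and collagens, and they secrete lubricants, hyaluronan, protease inhibitors and complement onto the serous surface. In the embryo, cells that leave this sheet give rise to fibroblasts and smooth muscle of the organs below, and in the adult the same change of state accompanies serosal scarring. The aorta meets this covering where it runs beneath the pleura, the pericardium and the peritoneum.

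The study asked how aging and the flavonoid fisetin, given as a senolytic (an agent meant to clear senescent cells), change the cells of the aorta. Young mice (labelled 3 months) and old mice (27 months), all C57BL/6N and with no transgene, received vehicle or 100 mg/kg/day fisetin by oral gavage for 1 week, paused for 2 weeks and were dosed for 1 more week. Y VEH and O VEH denote young and old mice given vehicle, and Y FIS and O FIS those given fisetin. The carrier, shared by all 4 groups, was a mix of Phosal 50 PG (60%), PEG400 (30%) and ethanol (10%). Per the labels, each library pooled aortic cells of 3 mice of one sex, with 2 female (F1, F2) and 2 male (M1, M2) libraries in a group, except that O VEH had 1 male library. Single mice cannot be separated within a library. Perivascular fat was removed by dissection, and viable cells were sorted before the 10x Genomics 3′ libraries were made. The libraries held 6372 to 14805 kept cells and 49964001 to 74587567 UMIs, and the gated cells together held 5.99732e+06 UMIs.

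The markers that the rule counts describe how the cells were chosen and test nothing. Upk3b and Upk1b, both uroplakin genes, had a UMI in 97.2% and 92.1% of the gated cells, and Msln, the gene of the surface protein mesothelin, in 80.9%. In cells gated as endothelial (Cdh5 present, Ptprc absent; median 4045 UMIs) and as leukocytes (Ptprc present, Cdh5 absent; median 7516 UMIs), which should lack Upk3b, it had a UMI in 0.454% and 0.629%. The gated cells were deeper than these, with a median of 10763.5 UMIs and a range of 518 to 36836. Just outside the rule stood 49 cells with exactly 2 of the 6 markers, at a median of 3432 UMIs, 4 marker UMIs and 6 further mesothelial markers. Just inside it, the 52 cells with exactly 3 had a median of 2770.5 UMIs, 7 marker UMIs and 7 further markers. Another 133 cells had at least 3 markers but were kept out because they carried Ptprc or Cdh5.

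The label was checked against 16 further mesothelial markers that the rule did not use; these describe the chosen cells, and no test applies. The median gated cell carried a UMI of 12 of the 16, and 89.2% of the cells carried at least 8. Levels were expressed as CPM, the summed counts of a library's gated cells scaled to a common total, for the 12 libraries with at least 10 gated cells. On that scale 15 of the 16 markers had a higher mean than in all other kept cells of the same libraries. Wt1, a transcription factor of the mesothelium, stood at 410 ± 96.1 CPM (SD, n = 12 libraries) against 8.11 in the other cells. Gpm6a, a membrane glycoprotein, stood at 1469 ± 386 CPM against 30.3, and Bnc1, a zinc finger factor, at 129 ± 30.4 CPM against 0.262. Calb2, the gene of calretinin, a protein much used to stain human mesothelium, had 0 UMIs in the gated cells of all 12 libraries. The keratins of simple epithelia were present, with Krt7 at 129 ± 63.5 CPM, Krt8 at 188 ± 89.0 and Krt18 at 215 ± 84.1.

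Markers of most other sources were low or absent. The 8 genes listed for urothelium and other epithelia were all under 5 CPM, with Upk2, Krt5 and Sftpc at 0 UMIs. Of 6 adrenal cortex genes, Cyp11b1, Cyp11a1, Hsd3b1 and Akr1b7 had 0 UMIs, while Star, which carries cholesterol into mitochondria, was at 80.0 ± 64.3 CPM against 4.43 in other cells, 18.1 times higher. The 6 endothelial markers other than Cdh5 and the 6 leukocyte markers other than Ptprc all had a lower mean than in other cells, with summed levels of 63.4 to 245 CPM and 63.8 to 1385 CPM per library. Fibroblast genes were mixed. Dcn, the proteoglycan decorin, was abundant at 12220 ± 4297 CPM against 15494 CPM in fibroblast-gated cells, which Dcn itself helped to choose. Those cells had at least 3 of Pdgfra, Dcn, Lum, Col1a1 and Pi16, under 2 of the 6 mesothelial markers of the rule, and no Ptprc or Cdh5. Pi16, a marker of adventitial fibroblasts, was lower than in all other kept cells. At least 3 markers of an endothelial, smooth muscle, leukocyte, neutrophil, erythroid or adipocyte list, or 2 of Pdgfra, Lum and Pi16, were found in 144 of the 544 cells. None of the gated cells was called a doublet, but the caller marked under 0.5% of cells in O VEH F1 and in Y FIS F2 and so did not work there. No barcode was gated in more than 1 library, and 17 gated barcodes recurred among kept cells of another library.

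**Figure D1:**
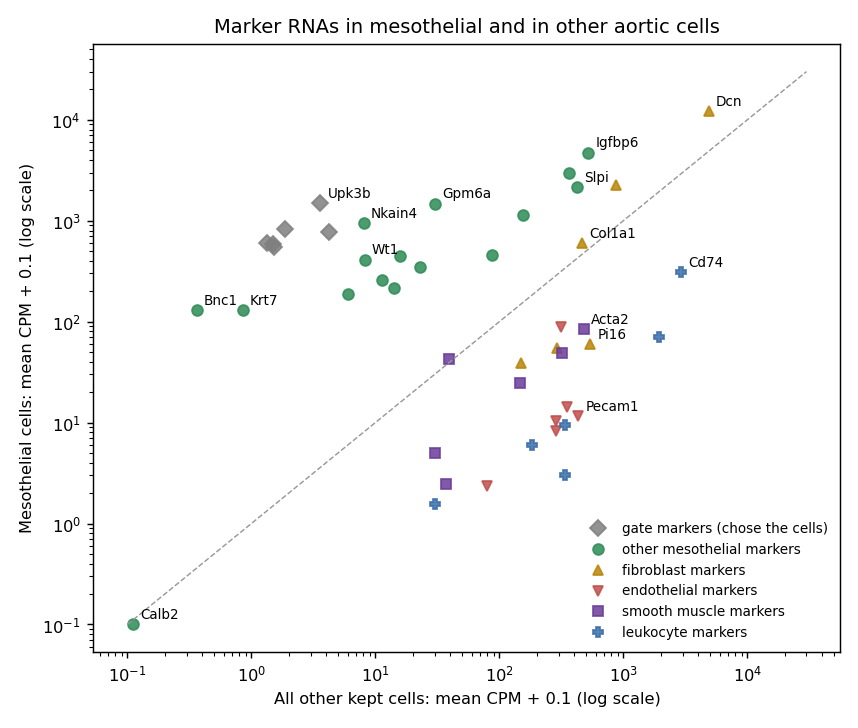
Mean level of marker RNAs in gated mesothelial cells (y axis) and in all other kept cells (x axis), in CPM + 0.1 on log scales, over 12 libraries weighted equally. Grey diamonds are the markers that chose the cells; 15 of the 16 other mesothelial markers lie above the dashed line of equal level and Calb2 sits at 0, while endothelial and leukocyte markers lie below it.

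The RNAs most particular to the gated cells by level were found among 2308 RNAs with at least 50 CPM in each of the 12 libraries, leaving out the genes of the rule, by the ratio of their mean CPM to that of all other kept cells. This ratio describes the gate, and says nothing of shared control. Over all libraries the other kept cells included 53335 endothelial-gated, 30205 leukocyte-gated and 21650 fibroblast-gated cells. Here and below, a level above other cells is therefore not a comparison with fibroblasts alone. Bnc1, at the levels given above, led. It was followed by Lgals7 (galectin-7, a carbohydrate-binding protein of stratified epithelia) at 333 times the level in other cells and Lrp2 (megalin, an endocytic receptor) at 273 times. Cxadr, the receptor of coxsackievirus and adenovirus at epithelial junctions, stood at 147 times, Myrf, a membrane-bound transcription factor, at 124 times, and Nkain4 at 119 times. Several genes best known from neurons also ranked here, with Rbfox1 (a splicing factor) at 195 times, Kcnd2 (a potassium channel) at 160 times, Zfp804b at 141 times and Il1rapl1 (a synaptic receptor) at 100 times. G930009F23Rik, Myo5b, Tmem151a, Mdfic2 and Crym completed the 15, the last at 73.2 times. The spread of these levels over libraries was unequal: Il1rapl1 ran from 778 to 1350 CPM, Rbfox1 from 392 to 4500 CPM.

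Secreted products were mixed. Of 11 lubricant and defence genes 4 were higher than in other cells, of 14 fibrinolysis and coagulation genes 6 and of 19 chemokines and cytokines 7, at median ratios of 0.70, 0.83 and 0.42. Of 13 complement genes, 9 were higher than in other cells; C3, the central component of the cascade, stood at 7195 ± 3612 CPM against 849, and C2, a component of the classical pathway, at 597 ± 173 CPM against 37.2. Rarres2, the gene of the chemoattractant chemerin, stood at 3004 ± 873 CPM against 367, and Igfbp6, which binds insulin-like growth factors, at 4715 ± 1378 CPM against 522. Cxcl12, the chemokine the study followed in endothelial cells, was low here at 24.0 ± 15.0 CPM against 532 in other cells. Of its receptors, Ackr3 was measured at 171 ± 63.8 CPM against 199, and Cxcr4 was under 5 CPM.

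The cells also differed from one another. With each cell thinned to 5000 UMIs, which 427 of the 544 cells allowed and 117 did not, RNAs were ranked by the variance between cells within a library, taken over 406 of the 427 cells, divided by the mean. Over 1884 RNAs the highest ratios belonged to Malat1 (a nuclear noncoding RNA), Slpi, Gsn (gelsolin), Mgp (matrix Gla protein), Nxph1, Lgals1 and Dcn. Slpi, a secreted inhibitor of leukocyte elastase, differed widely across libraries. Its level was 172 CPM at the lowest and 11812 CPM at the highest, with a median thinned count of 24 UMIs per cell in Y FIS M2 and 27 in O VEH F2 but 0 or 1 in the other 10 libraries. At least 20 thinned UMIs were found in 63.2% of the cells of Y FIS M2 and 55.3% of those of O VEH F2, against at most 12.8% elsewhere. These libraries differ in age, sex and treatment. Gpm6a and Nkain4, markers that the rule did not use, had a UMI in 87.1% to 100% and in 84.2% to 100% of thinned cells in each of the same 12 libraries.

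Whether the share of mesothelial cells moved with age or treatment was asked first. In Y VEH the share was 0.343% in F1, 0.571% in F2, 0.123% in M1 and 0.653% in M2. In Y FIS it was 0.450%, 0.184%, 0.615% and 0.252% in the same order. In O VEH it was 0.628%, 0.456% and, in M1, 0.0708%. In O FIS the females had 0.631% and 1.41%, M1 had 0 of 10006 cells, which allows a share of up to 0.0300% (3 cells; the exact 95% interval described next reaches 0.0369%), and M2 had 0.143%. The groups overlapped throughout. The exact (Clopper-Pearson) 95% intervals of many libraries overlapped, such as 0.424% to 0.752% for Y VEH F2 and 0.471% to 0.882% for Y VEH M2. That of O FIS F2, at 1.15% to 1.71%, lay above all the others, and that of O VEH M1 was 0.0260% to 0.154%. Intervals and the limit at 0 cover counting error only, and a share of sorted cells depends on how much serosa stayed on each dissected aorta, which was not measured.

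No difference between group means exceeded the spread between libraries. Y VEH had a mean of 0.422% ± 0.239 (SD, n = 4) and Y FIS of 0.375% ± 0.196 (n = 4), while O VEH had 0.385% ± 0.285 (n = 3) and O FIS 0.545% ± 0.635 (n = 4). O VEH minus Y VEH was -0.0374 percentage points (two-sided exact permutation p = 0.914, smallest possible 0.0571). O FIS minus O VEH was 0.160 points (exact permutation p = 0.743, smallest possible 0.0571), and Y FIS minus Y VEH was -0.0472 points (exact permutation p = 0.771). O FIS minus Y VEH was 0.123 points (exact permutation p = 0.829) and old minus young 0.0778 points (exact permutation p = 0.718). Adjusted over 6 comparisons, these 5 exact permutation tests had p = 0.914. The sign of O FIS against O VEH, of O FIS against Y VEH and of old against young turned without O FIS F2, to -0.127, -0.165 and -0.0774 points.

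Sex gave the largest of the 6 differences. Male libraries had a mean share of 0.265% ± 0.263 (SD, n = 7) and female libraries 0.584% ± 0.366 (n = 8), a difference of -0.319 points (two-sided exact permutation p = 0.0584, 0.351 adjusted over the 6). Without Y VEH M2, Y FIS M1 or Y FIS F2 the unadjusted exact permutation p fell to 0.0200, 0.0240 and 0.0274. Without O FIS F2 the difference shrank to -0.201 points (exact permutation p = 0.110), and over all single libraries left out the p reached 0.115. Among old mice, the 3 male libraries (0, 0.0708% and 0.143%) all lay below the 4 female libraries (0.456% to 1.41%), a difference of -0.710 points at the smallest p the design allows (exact permutation p = 0.0571). Among young mice the sexes overlapped, at a difference of 0.0237 points (exact permutation p = 0.886). The age difference in males minus that in females was -0.733 points (two-sided exact permutation of age labels within each sex, p = 0.00490, 2450 relabellings). That test was chosen after the shares had been seen. Its relabelling assumes no age difference in either sex, so it does not test whether the age differences are equal. Old minus young was 0.394 points in females (exact permutation p = 0.0571) and -0.340 points in males (exact permutation p = 0.114). The age difference in males minus that in females ran from -0.841 to -0.524 points with any 1 library left out. The exact permutation p then lay between 0.00286 and 0.0114.

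**Figure D2:**
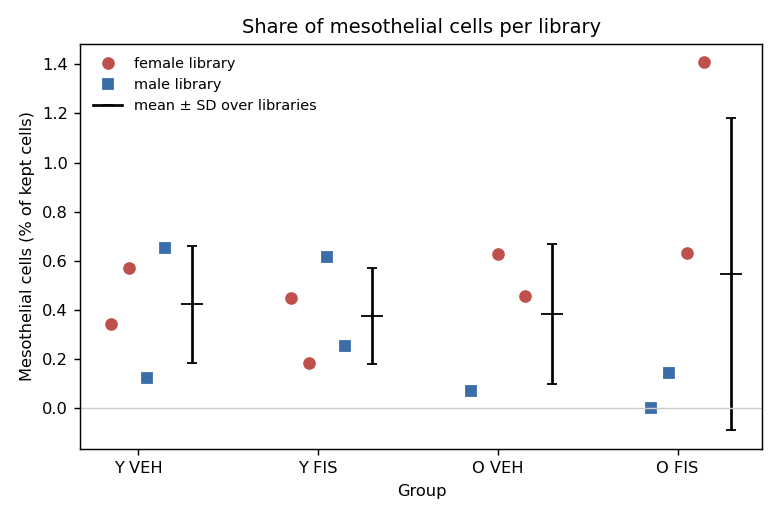
Gated mesothelial cells as a percent of kept cells (y axis) in each library of the 4 groups (x axis), red circles for female and blue squares for male libraries, with mean ± SD beside them. The 3 old male libraries lie at 0, 0.0708% and 0.143%, below all old female libraries, and the 4 groups overlap.

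RNA levels were compared on the summed counts of gated cells in the 12 libraries with at least 10 such cells (529 cells), which leaves out Y VEH M1, O VEH M1 and O FIS M1. O VEH is then 2 female libraries and old males are 1 library, so a sex term was fitted. Each library entered with 142206 to 1054739 UMIs. An RNA was called at an adjusted p under 0.05 (edgeR quasi-likelihood test, Benjamini-Hochberg over all RNAs tested), a log2 fold change past 0.25 and detection in at least 10% of gated cells of one side. Each library is a pool of mice, and the sources used here do not settle whether same-sex libraries of a group are separate pools, so p-values measure only the spread between these libraries, which may be technical.

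Over both treatments, 4 antigen presentation RNAs of the list (H2-K1, H2-D1, H2-Q4 and B2m), 3 interferon-induced RNAs (Psmb8, Psmb9 and Ifit1) and 2 complement RNAs (C3 and Cfb) were higher in mesothelial cells of old than of young mice, and Col1a1 was lower. Of 8864 RNAs tested, 19 were called (0.214%), with 17 higher in the 5 old libraries (0.192%) and 2 lower (0.0226%), and 605 (6.83%) had an unadjusted p under 0.05. In 12 of the 17 and in 1 of the 2, every old library lay beyond every young one, which over all RNAs tested held for 0.395% upward and 0.316% downward. With 1 library left out the count changed, to 0 without Y VEH F2, 3 without Y VEH F1, 4 without O VEH F2 and 12 without Y FIS F1, and between 13 and 24 without any of the others. H2-K1 and Psmb8 kept their call unless Y VEH F2 was left out (edgeR adjusted p = 0.0683 for each), and none of the 11 called RNAs refitted in this way changed sign.

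H2-K1, H2-D1, B2m, H2-Q4 and H2-Q6, all of MHC class I, were called higher in old libraries. These genes encode the surface molecules that show peptides of the cell's own proteins to CD8 T cells. H2-K1 (chromosome 17, 34214987 to 34219321, GRCm39), a classical class I heavy chain, stood at 1244, 1329 and 1927 CPM in Y VEH F1, F2 and M2. It stood at 1253, 889, 1345 and 1335 CPM in Y FIS F1, F2, M1 and M2, at 2329 and 3400 CPM in O VEH F1 and F2, and at 2865, 3704 and 2918 CPM in O FIS F1, F2 and M2. All 5 old libraries thus exceeded all 7 young ones, with a log2 fold change of 1.26 (SE 0.17, edgeR adjusted p = 0.00452).

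B2m (chromosome 2, 121977957 to 121983594), the light chain shared by class I molecules, ran from 842 to 1594 CPM (median 1144) in the 7 young libraries and was 2010, 2551, 2606, 2789 and 1990 CPM in the old ones. The groups did not overlap (log2 fold change 1.06, SE 0.17, edgeR adjusted p = 0.0134). H2-D1, the other classical heavy chain of this strain, ran from 706 to 1663 CPM in young and from 1917 to 2767 CPM in old libraries, again apart (0.94, SE 0.17, edgeR adjusted p = 0.0267). The nonclassical H2-Q6 ran from 5.89 to 112 CPM in young and from 123 to 209 CPM in old libraries, and H2-Q4 from 26.3 to 82.7 and from 76.6 to 161 CPM, where O VEH F1 overlapped. H2-D1 and H2-Q6 each lost their call in 6 of 22 alternative fits. H2-K1, H2-D1 and the H2-Q genes are near copies of one another, and how reads were split between them is uncertain. Of the 12 tested genes of a list of 13 antigen presentation genes, all 12 had a positive fold change, 10 with an unadjusted p under 0.05 and 4 called, at a median log2 fold change of 1.31 against -0.0037 over all RNAs tested. This and the other gene lists were chosen with earlier results of these data known. Counts and medians over a list therefore describe its genes and test nothing.

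Class II RNAs, whose products normally sit on professional antigen-presenting cells, had the larger fold changes but were not called. Cd74, the invariant chain, had a log2 fold change of 2.97 (SE 0.78, edgeR adjusted p = 0.42), and its level ran from 41.2 to 292 CPM in young and from 190 to 1325 CPM in old libraries. H2-Ab1, H2-Eb1 and H2-Aa had log2 fold changes of 2.63, 2.52 and 2.30. All 6 listed leukocyte markers other than Ptprc had a UMI in gated cells. Only 3 of the 6 were tested and none was called, with Cd74 itself, Tyrobp at 0.79 and Lyz2 at -0.66. Their summed level ran from 63.8 to 569 CPM in young and from 252 to 1385 CPM in old libraries, and Cd74 is the 1 marker of the 6 with a mean of at least 100 CPM. The 4 neutrophil markers summed to 0 to 17.7 CPM in young and 20.5 to 60.5 CPM in old libraries. The part of leukocyte RNA in the class II levels was not tested. Without the gated cells that carried markers of another lineage, 15 RNAs were called between old and young, of which 7 were among the 19. The rest of the 19, and so most of them, were not called there. Among the called RNAs that were followed by name, H2-K1, B2m, Ifi47 and Col1a1 kept their call, whereas 5 lost it with the same sign. Their log2 fold changes in that fit of 7011 RNAs were 0.79 for H2-D1 (edgeR adjusted p = 0.0809), 1.097 for Psmb8 (0.0652), 0.996 for Ifit1 (0.366), 1.21 for Cfb (0.108) and 1.08 for Tmem176a (0.0652).

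The immunoproteasome cuts peptides for class I molecules, and its subunit Psmb8 (chromosome 17, 34416690 to 34420428) stood at 196, 149 and 144 CPM in Y VEH and at 122, 112, 132 and 89.996 CPM in Y FIS. It stood at 236 and 316 CPM in O VEH and at 330, 323 and 352 CPM in O FIS. Old and young did not overlap (log2 fold change 1.15, SE 0.15, edgeR adjusted p = 0.00452). The subunit Psmb9 was also called (1.06, SE 0.20, edgeR adjusted p = 0.0302), although O VEH F1, at 96.8 CPM, lay below Y VEH F1, at 111 CPM.

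Interferon-induced genes pointed one way. All 28 listed genes were tested and had a positive fold change, 20 with an unadjusted p under 0.05 and 3 called (Psmb8, Ifit1 and Psmb9), at a median log2 fold change of 0.77. This list too was chosen with earlier results of these data known. Their summed level overlapped, at 2685 to 3944 CPM in young and 3031 to 7112 CPM in old libraries. Ifit1 (chromosome 19, 34618271 to 34632174), which binds foreign RNA that lacks a host cap, ran from 25.6 to 99.2 CPM in young libraries (median 55.8). It was 109 and 177 CPM in O VEH and 277, 198 and 120 CPM in O FIS, all above the young range (1.22, SE 0.21, edgeR adjusted p = 0.0200). Ifit1 lost its call in 8 of 22 alternative fits. Ifi47, an interferon-induced GTPase outside the list, ran from 15.0 to 53.0 CPM in young and from 54.4 to 134 CPM in old libraries (1.70, SE 0.26, edgeR adjusted p = 0.0134). Irf7, the factor that amplifies type I interferon, and Usp18, which restrains its receptor, had log2 fold changes of 1.44 and 1.43 and were not called (edgeR adjusted p = 0.15 for each). Stat2 at 0.19 and Rsad2 at 0.18 were among the smallest. The list also moved with sex, as given further on, and the old libraries hold 4 female and 1 male. With no sex term 33 RNAs were called between old and young, 15 of them among the 19, and Ifit1 (edgeR adjusted p = 0.0938) and H2-Q6 (0.0605) were not.

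The promoters of B2m and Ifit1, both called, are shown because they hold the letters of a motif through which interferon acts; binding was not measured. RefSeq promoter windows on GRCm38.p6, from 250 bases before to 50 after the annotated start, were searched on both strands for GAAA followed after any 2 bases by a second GAAA, a core of the interferon-stimulated response element. The stretches run from base -160 to base -61, written 5′ to 3′ on the gene's strand with matches in capitals. In B2m (chr2:122147527-122147626, plus strand) and Ifit1 (chr19:34640729-34640828, plus strand) the capitals mark this motif, which in Ifit1 reads on the opposite strand.
B2m: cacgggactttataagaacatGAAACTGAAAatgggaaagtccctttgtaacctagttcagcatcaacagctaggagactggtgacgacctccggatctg
Ifit1: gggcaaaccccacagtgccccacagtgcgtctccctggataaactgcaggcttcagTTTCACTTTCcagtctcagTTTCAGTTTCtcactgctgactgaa

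The motif was found in 3.44% of all 32851 windows and in 3.99% of the 27025 genes with a window. Of the 28 interferon-list genes 21 had a window, and 13 of these held it, among them Isg15, Irgm1, Stat2 and Ifit3. Of the 17 RNAs higher in old libraries 15 had a window, and B2m and Ifit1 held it. Of the 13 antigen presentation genes 9 had a window, and 2 of them, B2m and H2-T23, held it. A second motif, TTCNNNGAA with N for any base, was found in 9.55% of all genes with a window. It was in 2 of the 15 higher in old (Mgst1 and Psmb8), in 6 of the 21 interferon-list genes and in 0 of the 9 antigen presentation genes. A window without a match says only that these letters are not in it.

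Complement RNAs were higher in old libraries for 2 called genes, and 7 of 10 tested genes of the list had an unadjusted p under 0.05 upward, at a median log2 fold change of 0.64. Cfb, the protease of the alternative pathway, ran from 127 to 363 CPM in young libraries (median 213) and was 373 and 627 CPM in O VEH and 485, 472 and 450 CPM in O FIS. The groups did not overlap (1.22, SE 0.21, edgeR adjusted p = 0.0222), but Cfb lost its call in 7 of 22 alternative fits. C3 ran from 3850 to 6225 CPM in young libraries and was 10292, 15860, 10428 and 9616 CPM in the 4 old female libraries. In the only old male library, O FIS M2, it was 5478 CPM, within the young range (1.02, SE 0.18, edgeR adjusted p = 0.0236). C4b, of the classical pathway, ran from 63.5 to 524 CPM in young and from 232 to 1949 CPM in old libraries and was not called (1.91, SE 0.34, edgeR adjusted p = 0.067).

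**Figure D3:**
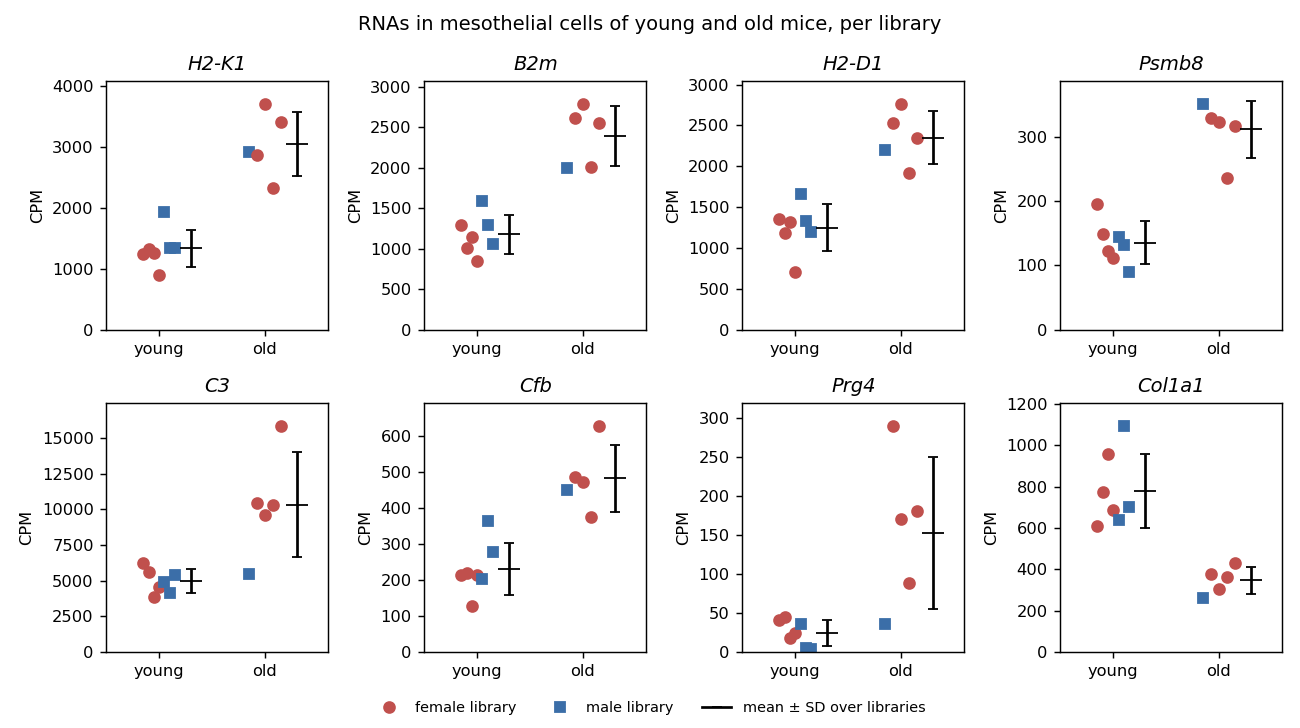
Level of 8 RNAs in gated mesothelial cells (y axes, CPM) in 7 young and 5 old libraries (x axes), red circles for female and blue squares for male libraries, with mean ± SD. H2-K1, B2m, H2-D1, Psmb8 and Cfb in old libraries lie above all young libraries and Col1a1 lies below them, while C3 and Prg4 overlap through the single old male library.

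Among secreted and surface products, Prg4, the gene of the lubricant lubricin, ran from 3.75 to 44.7 CPM in young libraries and was 88.7, 181, 291 and 171 CPM in old females. The old male library, at 35.2 CPM, lay within the young range (2.45, SE 0.35, edgeR adjusted p = 0.0134). Plac8 did likewise, from 3.75 to 82.3 CPM in young and from 49.2 to 275 CPM in old libraries (2.08, SE 0.31, edgeR adjusted p = 0.0135). Mgst1, a membrane glutathione transferase, ran from 267 to 455 CPM in young and from 534 to 691 CPM in old libraries, and Tmem176a from 187 to 435 and from 444 to 575 CPM. Tmem176a lies beside its paralog Tmem176b, and how well reads were told apart between them was not tested. AW112010, an interferon-induced transcript, ran from 82.5 to 172 and from 205 to 278 CPM. C130026I21Rik, of a multigene family on chromosome 1, had 0 to 1.97 CPM in young and 13.03 to 25.6 CPM in old libraries, and its counts among near copies are uncertain. Its call was lost in 9 of 12 fits with 1 library left out.

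Collagen I RNA moved the other way. Col1a1 (chromosome 11, 94827050 to 94843868), a chain of the fibrillar collagen I, stood at 610, 775 and 636 CPM in Y VEH and at 956, 689, 1095 and 701 CPM in Y FIS. It was 361 and 430 CPM in O VEH and 378, 304 and 260 CPM in O FIS, below every young library (-1.11, SE 0.17, edgeR adjusted p = 0.0134). Its partner chain Col1a2 had a log2 fold change of -0.69 (edgeR adjusted p = 0.20) and was not called. Of 25 tested matrix and basement membrane genes 21 had a negative fold change, 6 with an unadjusted p under 0.05 and Col1a1 called, at a median of -0.34. Of 16 tested genes followed when mesothelial cells turn mesenchymal, 15 were negative, Col1a1 again the only call, at a median of -0.68. Vim, the intermediate filament vimentin, ran from 1372 to 2028 CPM in young and from 752 to 1225 CPM in old libraries without overlap, yet missed the threshold (-0.76, SE 0.16, edgeR adjusted p = 0.067). Markers of other mesenchymal cells pointed the same way. All 6 fibroblast markers were negative (median -0.96), with Col1a1, which is one of them, called and Pi16 at -2.96 (edgeR adjusted p = 0.714), and their summed level ran from 8731 to 25090 CPM in young and from 9958 to 17640 CPM in old libraries. All 4 tested smooth muscle markers were negative (median -0.98, none called), with sums over the 6 listed of 152.5 to 531.3 CPM in young and 48.4 to 298.1 CPM in old libraries. Their part in the matrix and mesenchymal values was not tested. Ntm, a neural adhesion molecule, was called lower in old (-3.02, SE 0.56, edgeR adjusted p = 0.0267) from levels of 0 to 53.3 CPM in young and 0 to 16.1 CPM in old libraries. A further list was taken from an earlier description of these data, which reported its RNAs as falling in every cell type. Of those tested (Cmss1, Cdk8, Lars2, Camk1d, Gm15564, Malat1 and Neat1) 6 of 7 were negative, 4 with an unadjusted p under 0.05 and none called. Their direction is therefore not an independent result. Their summed level was 22200 to 27250 CPM in old and 24500 to 43870 CPM in young libraries. Their part in these differences was not tested.

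**Figure D4:**
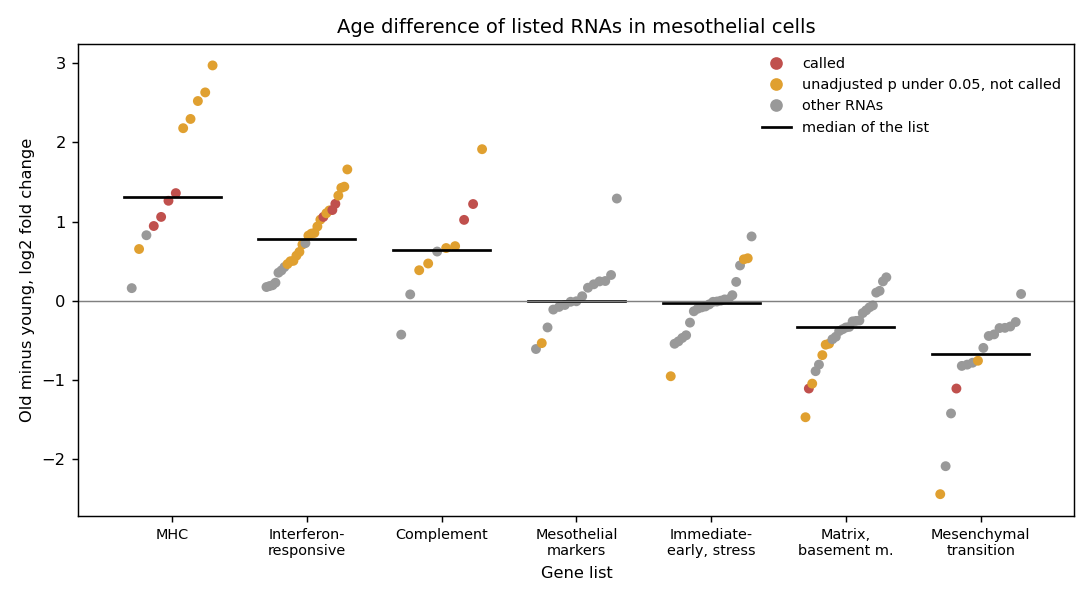
Old minus young log2 fold change over both treatments (y axis) of each tested RNA of 7 gene lists (x axis), from the edgeR fit, in red where called, in orange where only the unadjusted p was under 0.05, and otherwise in grey, with the median of each list as a bar. Medians of antigen presentation, interferon and complement lists are 1.31, 0.77 and 0.64, those of matrix and mesenchymal transition lists -0.34 and -0.68, and that of mesothelial markers -0.01. The lists were chosen with earlier results of these data known.

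No mesothelial marker passed the test with age. None of the 15 tested mesothelial markers outside the rule was called between old and young, at a median log2 fold change of -0.01, with Wt1 at 0.16 (SE 0.16) and Gpm6a at -0.01 (SE 0.21), and 1 of them (Igfbp6, -0.54) had an unadjusted p under 0.05. None of 22 immediate-early and stress genes and none of 10 tested cell cycle inhibitors and senescence-associated secretory genes was called, at medians of -0.03 and -0.15. Cdkn1a, the gene of p21, ran from 22.5 to 172 CPM in young and from 87.3 to 216 CPM in old libraries (0.38, SE 0.32, edgeR adjusted p = 0.93). S100a9 had the largest fold change of that list (3.09, edgeR adjusted p = 0.14), at 0 to 7.26 CPM in young and 12.3 to 30.2 CPM in old libraries, and is one of the 4 neutrophil markers above. Ackr3 had a log2 fold change of -0.24 (edgeR adjusted p = 0.994).

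Whether the age difference was particular to mesothelial cells was tested by subtracting the age difference of all other kept cells of the same libraries (limma on log2 CPM with a prior count of 2). None of 9024 RNAs was called (0%), and 703 (7.79%) had an unadjusted p under 0.05; 2 were called without O FIS M2 and 1 without Y FIS F1 or O VEH F1. H2-K1 rose by 1.25 in mesothelial and 0.67 in other cells on the log2 scale, a difference of 0.59 (SE 0.21, limma adjusted p = 0.506). C3 differed by 1.00 in mesothelial and by -0.01 in other cells, a difference of 1.01 (SE 0.35, limma adjusted p = 0.505). Col1a1 differed by -1.10 and -1.20, a difference of 0.10 (SE 0.25, limma adjusted p = 0.945). Against fibroblast-gated cells alone 1 RNA was called, and the difference of H2-K1 was 0.30 (SE 0.16, limma adjusted p = 0.773).

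Fisetin was asked about next. Between O FIS and O VEH none of 8803 RNAs was called (0%) by edgeR, with 254 (2.89%) at an unadjusted p under 0.05, and DESeq2 also called 0. Among the RNAs that separated old from young, H2-K1 differed by 0.06 (SE 0.25) on the log2 scale, B2m by 0.07 (SE 0.24), Psmb8 by 0.28 (SE 0.22), Cfb by -0.19 (SE 0.30) and C3 by -0.58 (SE 0.26), each with an edgeR adjusted p of 1. H2-K1, B2m, Cfb and C3 overlapped between the 3 O FIS and the 2 O VEH libraries, while Psmb8 was above both O VEH libraries in all 3 O FIS libraries. The share of all RNAs tested that separated so few libraries is not given here, so no difference is read from this. Of 28 interferon genes 23 were positive, 3 with an unadjusted p under 0.05, and of 10 complement genes 9 were negative, 2 with an unadjusted p under 0.05. The smallest p-values belonged to Eda (-1.61), Tcim (1.72), Vnn1 (-1.74), Tmem255a (1.31) and Bach2 (1.41), with an edgeR adjusted p of 1 for each. Without O FIS F2, 1 RNA was called.

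Between Y FIS and Y VEH none of 8837 RNAs was called (0%) by edgeR or by DESeq2, with 264 (2.99%) at an unadjusted p under 0.05. Ptges, a prostaglandin E synthase, had the smallest p, at 9.19 CPM in Y FIS and 36.6 CPM in Y VEH on average (-2.30, SE 0.50, edgeR adjusted p = 1). Aox3, Ier5, Plac8 and Des followed at -2.64, -1.63, -2.10 and -1.80, all with an edgeR adjusted p of 1. Of the 22 immediate-early and stress genes 21 were negative, 5 with an unadjusted p under 0.05, at a median of -0.36, and none was called. The effect of fisetin in old minus that in young called 0 of 8937 RNAs by edgeR, with 315 (3.52%) at an unadjusted p under 0.05, and 1 by DESeq2. Eda (-2.26), Ptges (3.16), AU021092 (-4.17), Tec (1.55) and Immp2l (1.21) had the smallest p-values, with an edgeR adjusted p of 1 for each.

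The comparisons with Y VEH alone share its 3 libraries. For O VEH against Y VEH none of 8871 RNAs was called (0%) by edgeR or by DESeq2, with 367 (4.14%) at an unadjusted p under 0.05, and fitting only these groups, with 2 and 3 libraries, called 29. In the fit of all groups 1 RNA was called without Y VEH M2, without O FIS F1 or without O VEH F1. Ntm (-4.56, edgeR adjusted p = 0.437), Cmss1 (-1.22), Cfb (1.37), C3 (1.18) and Fam234a (-1.68) had the smallest p-values. For O FIS against Y VEH none of 8850 was called (0%) by edgeR, with 422 (4.77%) at an unadjusted p under 0.05, whereas DESeq2 called 11 and a fit of only these groups 12. Without Y VEH M2 edgeR called 4, and without Y FIS M1 it called 1. Ifit1 (1.59, SE 0.27, edgeR adjusted p = 0.0894), Ifi47 (1.92), Stmn2 (1.18), Tmem255a (1.58) and H2-Q4 (1.44) were closest to the threshold. H2-K1 differed by 1.06 (SE 0.25) in O VEH against Y VEH and by 1.12 (SE 0.22) in O FIS against Y VEH, and Psmb8 by 0.77 (SE 0.22) and 1.05 (SE 0.20).

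Males and females differed in 19 of 8850 RNAs (0.215%), 14 higher in the 4 male libraries (0.158%) and 5 lower (0.0565%), with 877 (9.91%) at an unadjusted p under 0.05. The sexes did not overlap for 11 of the 14 and 4 of the 5, which over all RNAs tested held for 1.03% upward and 0.644% downward. The sex-linked genes checked the labels. Xist, the RNA that silences one X chromosome, ran from 391 to 700 CPM in the 8 female libraries and was at 0 in the 4 male ones, and its antisense partner Tsix did likewise. The Y-linked Ddx3y was at 61.1, 68.9, 109 and 91.4 CPM in males and at 0 in females, and Uty, Eif2s3y and Kdm5d were also at 0 in females. The count was 5 without Y VEH F2 or without Y FIS M1, 8 without O FIS M2 or without O FIS F2 and 10 without Y VEH M2.

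Among the other 13 calls, Eda (chromosome X, 99019212 to 99444368), a ligand of the TNF family known from skin appendages, had the smallest p. It stood at 108, 167, 300 and 70.3 CPM in Y VEH M2, Y FIS M1, Y FIS M2 and O FIS M2, and from 18.0 to 67.0 CPM (median 40.9) in females (1.96, SE 0.26, edgeR adjusted p = 0.00151). The sexes did not overlap. Fxyd5, the gene of dysadherin, which modulates the sodium pump and cell adhesion, was at 142, 236, 97.5 and 134 CPM in the same males and from 16.1 to 72.6 CPM in females (1.76, SE 0.29, edgeR adjusted p = 0.0211). Tiparp, an ADP-ribosyltransferase induced by the aryl hydrocarbon receptor, was at 272, 404, 330 and 295 CPM in males and from 105 to 177 CPM in females (0.99, SE 0.16, edgeR adjusted p = 0.0146). Scn3b, a sodium channel subunit, Nr1h4, the bile acid receptor FXR, and Gda, guanine deaminase, were higher in males by 1.63, 1.31 and 1.15 on the log2 scale, and the nuclear RNA Neat1 by 0.84, all without overlap. With 1 library left out at a time, Gda lost its call in 11 of 12 fits, Nr1h4 in 9 and Scn3b in 7. Fxyd5 lost it in 5 and Tiparp in 3, while Eda kept it in all 12. Without the gated cells that carried markers of another lineage, 9 RNAs were called and 4 of them were among the 19. Fxyd5 was then at 0.86 (edgeR adjusted p = 0.666), Eda at 2.86 (0.103), Tiparp at 0.98 (0.123), Scn3b at 1.48 (0.0510), and Nr1h4 and Gda also lost their call.

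Tmsb4x, the X-linked gene of the actin-binding peptide thymosin beta 4, was lower in males, at 2313, 2426, 2257 and 2103 CPM against 3072 to 4551 CPM in females (-0.74, SE 0.14, edgeR adjusted p = 0.0346). Stmn1, which takes microtubules apart, was at 14.1 to 21.7 CPM in males and 33.1 to 145 CPM in females (-1.92, SE 0.35, edgeR adjusted p = 0.0346). Both lost their call without the cells of another lineage (log2 fold change -0.83, edgeR adjusted p = 0.0510 for Tmsb4x; -1.04, 0.249 for Stmn1). With 1 library left out at a time, Tmsb4x lost its call in 10 of 12 fits and Stmn1 in 7. Without Y FIS F1, 1 of these fits, the log2 fold change of Stmn1 was -1.30 (edgeR adjusted p = 0.141). Ntm was lower too (-3.60), with overlap. Btg2 and Zfp36, immediate-early genes that shorten the life of messenger RNAs, were higher in males by 1.04 and 1.24, with overlap, as was Lcn2, an iron-carrier-binding protein, by 2.95. Of the 22 immediate-early and stress genes 18 were positive, 11 with an unadjusted p under 0.05, at a median of 0.52. The list above that holds Cmss1, Malat1 and Neat1 summed to 27250 to 43870 CPM in males and 22200 to 30140 CPM in females. Its part in the sex differences was not tested. Of 28 interferon genes 26 were negative, 12 with an unadjusted p under 0.05 and none called, at a median of -0.63, and their summed level ran from 2685 to 3031 CPM in males and from 3343 to 7112 CPM in females. None of 12 antigen presentation genes had an unadjusted p under 0.05 between the sexes.

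**Figure D5:**
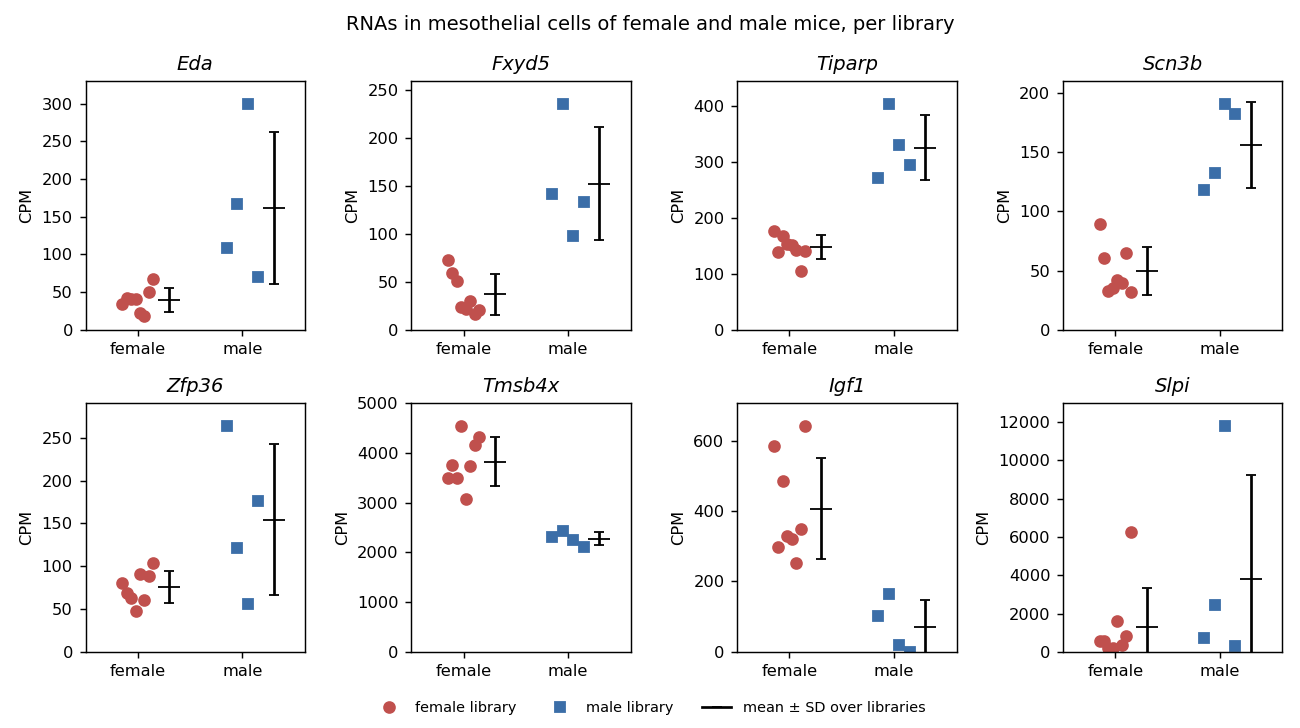
Level of 8 RNAs in gated mesothelial cells (y axes, CPM) in 8 female and 4 male libraries (x axes), with mean ± SD, the male bars of Igf1 and Slpi and the female bar of Slpi reaching below the axis. Eda, Fxyd5, Tiparp and Scn3b in the male libraries lie above all female libraries, Tmsb4x and Igf1 lie below them, Zfp36 overlaps, and Slpi is high in 1 male and 1 female library.

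The sex difference of mesothelial cells minus that of all other kept cells of the same libraries was called for 14 of 9024 RNAs (0.155%), with 4 higher (0.0443%) and 10 lower (0.111%) in male mesothelial cells relative to others, and with 853 (9.45%) at an unadjusted p under 0.05. Of the 14, Xist, Tsix, Uty, Ddx3y, Eif2s3y and Kdm5d are at 0 in the gated cells of one sex, so their fitted differences follow the prior count and the smaller number of cells. Fxyd5 differed by 1.74 in mesothelial and by -0.13 in other cells (difference 1.87, SE 0.31, limma adjusted p = 0.0351), and Eda by 1.82 and 0.11 (1.71, SE 0.27, limma adjusted p = 0.0273). Igf1, a growth factor of stromal cells, was at 101, 165, 18.8 and 0 CPM in Y VEH M2, Y FIS M1, Y FIS M2 and O FIS M2 and from 251 to 642 CPM in females, without overlap. Its sex difference was not called by edgeR in mesothelial cells alone (-2.38, adjusted p = 0.281), but it was -3.50 there and 0.44 in other cells by limma (difference -3.94, SE 0.59, limma adjusted p = 0.0273). Bmpr1b (-2.41), Pkp2 (-1.99), Adamts5 (-1.81), Cldn10 (-1.17) and Nkain4 (-1.12) were also called lower. For Nkain4 and Cldn10 the mesothelial difference was 0.08 and -0.17 and that in other cells 1.19 and 1.00. With a prior count of 0.5 the count fell to 1. It was 2 without Y FIS M2, 3 without Y FIS F1 or Y FIS M1, 4 without Y VEH F1 or O FIS M2, 5 without Y FIS F2 or Y VEH M2, 8 without O FIS F1 and 9 without Y VEH F2.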

How the data were processed

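Aortic cells of 15 libraries were analysed from the UMI counts per gene and barcode that the authors deposited. Per the labels, the authors aligned and counted reads with Cell Ranger 8.0.1 on GRCm39; their later Seurat 5.2.0 steps were not used here. The labels give 3 months for young mice and pools of 3 mice, whereas the methods of the study name 6 months and smaller pools for some. Barcodes were filtered and gated as stated above, and the members and gene lists were chosen with earlier results of these data known. Counts of gated cells were summed per library; libraries with at least 10 gated cells entered edgeR 4.0.16 (R 4.3.3; filterByExpr, TMM, quasi-likelihood, group and sex as terms, all 4 groups in 1 fit), at a common biological coefficient of variation of 0.229. Mesothelial minus other cells used limma 3.58.1 on the difference in log2 CPM within each library, with group and sex as terms. DESeq2 1.42.0 was an alternative. Shares were tested by exact permutation over all relabellings, coded directly. The package scipy 1.17.1 gave the exact intervals and a check of the permutation of group means on made-up values. Doublets were called by Scrublet in scanpy 1.11.5 and kept. The RNAs named were, for each comparison, up to 10 called in each direction with no overlap of libraries, the other called RNAs, the 5 smallest p-values where under 5 were called, list members and the 15 largest ratios to other cells. Coordinates are from GENCODE vM39 by gene ID, another release than the authors' annotation. The edgeR and limma tests of old against young were tried on simulated counts, and the permutation of group means and the gate on made-up values. DESeq2, the edgeR fit of cell counts, the permutation within each sex and Dixon's test were not tried in this way.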

Additional observations from a re-analysis of the deposited data

Results flagged for a closer look

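The age difference in the share of mesothelial cells was -0.733 percentage points in males minus that in females, from means of 0.0711% in old male, 0.411% in young male, 0.781% in old female and 0.387% in young female libraries (exact permutation p = 0.00490, test chosen after seeing the shares). It was marked because that p was under 0.05, although the permutation assumes no age difference in either sex. By itself the age difference had an exact permutation p of 0.0571 in females and 0.114 in males. Also marked were the 14 RNAs called for the sex difference of mesothelial minus other cells of the same libraries. Of these, 6 are sex-linked genes at 0 in one sex.

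Dixon's test was run in 39 checks of 4 libraries each, on shares of cells and on called RNAs. For RNAs only Y FIS had 4 libraries, so those checks reuse the same libraries. In 3 of the 39 checks, 1 library stood apart from the other 3. The test marks about 1 in 20 independent groups by chance, a rate that does not hold for such repeated checks. H2-Q4 was at 26.25 CPM in Y FIS M2 against 47.1 to 50.7 CPM in the others, and H2-Q6 at 5.887 CPM in Y FIS F2 against 43.5 to 45.7 CPM. Ifi47 was at 52.98 CPM in Y FIS F2 against 15.0 to 18.1 CPM. Y FIS F2 holds 13 gated cells.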

How the results depend on the processing

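Of the RNAs refitted under the alternatives, those called without overlap or with the 5 smallest p-values in a comparison, none changed direction. Counts of calls changed with the settings. DESeq2 called 46 between old and young (all 19 among them), 50 between the sexes (all 19 among them), 11 for O FIS against Y VEH and 1 for the effect of fisetin in old minus that in young. With no sex term 33 were called between old and young. With only the groups compared, 29 were called for O VEH against Y VEH and 12 for O FIS against Y VEH. With at least 2 markers 5 were called for O FIS against Y VEH. With at least 20 cells per library 1 was called for Y FIS against Y VEH and 5 between the sexes, and with at least 5 cells, chosen after seeing the data, 35 between old and young and 9 between the sexes. Without cells that carry markers of another lineage, also chosen afterwards, 6 were called for O VEH against Y VEH, 5 for O FIS against Y VEH and 9 between the sexes. Against fibroblasts 1 RNA was called for the age difference, and a prior count of 0.5 left 1 for the sex difference. Deviations of same-numbered libraries from the fit of group and sex had a median correlation of -0.154, with 1 of 15 pairs over 0.1. Same-numbered libraries are always of the same sex, and fitting sex itself lowers the correlation of such pairs. Whether the replicate number pairs the libraries therefore cannot be told from these values. The replicate block called 18 between old and young, 14 of them among the 19, 1 for O FIS against Y VEH and 0 for the other group comparisons.

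Leaving out 1 library gave 0 to 24 calls between old and young, 5 to 22 between the sexes, 0 to 1 for O VEH against Y VEH and for O FIS against O VEH, 0 to 4 for O FIS against Y VEH, and 0 to 2 and 2 to 15 for the age and sex differences of mesothelial minus other cells. Shares of cells ranged, in percentage points, from -0.159 to 0.120 for O VEH against Y VEH (0.0120 without Y VEH F2, 0.0394 without Y VEH M2, 0.120 without O VEH M1), from -0.127 to 0.342 for O FIS against O VEH, from -0.147 to 0.0296 for Y FIS against Y VEH (0.00220 without Y VEH F2, 0.0166 without Y FIS F2, 0.0296 without Y VEH M2), from -0.165 to 0.305 for O FIS against Y VEH, from -0.0774 to 0.157 for old against young, and from -0.383 to -0.201 for the sexes. With cells thinned to 2000 UMIs, O VEH against Y VEH turned to 0.0115 and Y FIS against Y VEH to 0.00236, and without cells of another lineage the former was 0.00233. On the log2 scale of an edgeR fit of cell counts, Y FIS against Y VEH was 0.0200, O FIS against Y VEH -0.15 and old against young -0.417, each opposite in sign to the difference in shares. The sexes passed an unadjusted exact permutation p of 0.05 with at least 4 markers (-0.308, p = 0.0283) and over cells with Ptprc at 0 (-0.477, p = 0.0466). The causes were not tested. With 6 to 99 gated cells in a library that has any, an RNA of few molecules is not resolved.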

Other observations

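Levels of transcription factors of the coelomic epithelium were set against those of all other kept cells, as a description of the gate. Whether these and the genes below also differ from fibroblasts alone is not given here. Of 16 listed factors 11 were higher than in other kept cells. Sox6 stood at 672 ± 185 CPM (SD, n = 12 libraries) against 15.2, Osr1 at 656 ± 225 against 79.2 and Gata6 at 321 ± 39.7 against 67.0. Isl1 and Gata5 were also above other cells, at 65.7 ± 46.5 CPM against 2.62 and 24.5 ± 7.15 CPM against 0.104. Tcf21, of the fibroblast lineage of the epicardium, was at 2.23 ± 2.29 CPM against 6.61, and Tbx20 was at 0.151 CPM.

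Of 25 listed keratins and junction genes 21 were higher than in other cells. Cdh11, a mesenchymal cadherin, stood at 755 ± 190 CPM against 18.8, Cldn15 and Cldn10, which form paracellular pores, at 346 ± 74.5 against 22.9 and 371 ± 112 against 11.9, and Crb2, of the apical polarity complex, at 47.0 ± 16.7 against 0.326. Cdh1, the cadherin of most epithelia, was at 0.699 CPM against 0.647. Among growth factors, Fgf1 stood at 420 ± 166 CPM against 11.8, Rspo1, which strengthens Wnt signalling, at 444 ± 64.6 against 15.7, Wnt4 at 111 ± 86.5 against 4.62 and Fgf9 at 65.3 ± 22.2 against 2.52. The retinaldehyde dehydrogenases Aldh1a1 and Aldh1a2, which make retinoic acid, stood at 537 ± 141 CPM against 67.3 and 259 ± 128 against 11.3, while Cyp26b1, which breaks it down, was at 0.715 CPM against 29.7. Il18 and Il33, cytokines of barrier cells, stood at 161 ± 21.6 CPM against 19.3 and 211 ± 88.4 against 75.7. Thbd, the gene of the anticoagulant thrombomodulin, stood at 433 ± 214 CPM against 112.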
